A study of Mus musculus with 24 samples.

Results

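The mitochondrial ribosomal protein genes of mouse liver were described across genotype and feeding. The members were the protein-coding genes whose symbol was Mrpl or Mrps followed by a number and at most 1 letter, and whose mean over the libraries used was at least 1 CPM, the usual scaling of counts to the size of the library. Of 77 protein-coding genes with such a symbol, 76 passed this level, among 41388 genes in the files and 11296 protein-coding genes at that level. They were 47 Mrpl and 29 Mrps symbols. The 1 gene outside was Mrpl53, with a single read in 1 of 22 libraries and a mean of 0.000904 CPM, and 87.1% of its annotated exon bases were shared with Gm42688 on the same strand. The lowest inside were Mrps6 with a mean of 3.81 CPM and Mrps36 with 4.71 CPM, so no member lay near the limit.

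The libraries were RNA-seq of liver with oligo-dT from 4 groups of mice. LSALT2KO mice, labelled KO, lack alanine transaminase 2 (gene Gpt2) in the liver and were either fasted for 18 h or fed ad libitum, with 6 libraries each. Control mice, labelled fl/fl in the sample titles and WT in the design text, were likewise fasted for 18 h or fed, with 5 libraries used in each of these groups out of 6 labelled. The titles of all libraries carry the letter M, while no label read here gives the Cre driver, the strain or the age. The labels do not say whether the libraries of a group came from separate animals, so p-values measure the spread between these libraries. Total reads on genes were 18.4 to 55.3 M in KO fasted, 23.0 to 44.5 M in KO fed, 19.9 to 46.5 M in control fasted and 27.7 to 40.0 M in control fed libraries. Gpt2 averaged 112 ± 36.3 CPM in KO fasted, against 697 ± 86.7 CPM in control fasted livers, and 60.5 ± 11.3 CPM in KO fed, against 370 ± 51.9 CPM in control fed livers (SD, n = 6 KO and 5 control). The file of control fed replicate 6 was cut short after 964 complete lines and was not used. In the library labelled control fasted replicate 4, Alb (albumin) was at 123 CPM, against at least 46335 CPM in each of the 22 libraries used, and the kidney gene Kap at 7041 CPM, against at most 8.88 CPM elsewhere. It was left out of every result unless stated.

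Mitochondria keep a ribosome of their own, which translates the few messenger RNAs encoded by mitochondrial DNA into core subunits of the respiratory chain and of ATP synthase. Its RNA comes from mitochondrial DNA, while all its proteins are encoded in the nucleus, made in the cytosol and imported. Part of these proteins descend from those of bacterial ribosomes and the others were added in mitochondria, and together they form a large subunit, which joins amino acids, and a small subunit, which reads the messenger RNA. Liver is rich in mitochondria, and fasting shifts hepatocytes towards fatty acid oxidation and the making of glucose from amino acids such as alanine.

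By role, 49 members encode proteins of the large subunit, 29 of them with a bacterial counterpart and 20 specific to mitochondria. Another 26 encode proteins of the small subunit, 16 with a bacterial counterpart and 10 specific to mitochondria. The symbols do not always give the subunit: Mrps18a and Mrps30 are named for the small subunit but their proteins sit in the large one. Mrps36 belongs to neither, since its product is an adaptor of the 2-oxoglutarate dehydrogenase complex. The members lay on 17 chromosomes, with 11 of them on chromosome 11 and 8 on chromosome 17.

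The 3 members that passed the test in a fasting comparison were Mrps27, Mrpl17 and Mrps15, and their start regions are shown because the results turn on them. Each is the RefSeq stretch from 250 bases before to 50 bases after the annotated start, in GRCm38.p6, written on the gene's own strand. Mrps27 lies at chr13:99344536-99344835 (plus strand), Mrpl17 at chr7:105811038-105811337 (minus strand) and Mrps15 at chr4:126046678-126046977 (plus strand). Capitals mark matches to 5 searched motifs, those of NRF1 (GCGCANGCG), ETS factors such as GABPA (CCGGAAG), YY1 (AANATGGCG), CREB (TGACGTCA) and SP1 (GGGCGG), each read on both strands.
Mrps27: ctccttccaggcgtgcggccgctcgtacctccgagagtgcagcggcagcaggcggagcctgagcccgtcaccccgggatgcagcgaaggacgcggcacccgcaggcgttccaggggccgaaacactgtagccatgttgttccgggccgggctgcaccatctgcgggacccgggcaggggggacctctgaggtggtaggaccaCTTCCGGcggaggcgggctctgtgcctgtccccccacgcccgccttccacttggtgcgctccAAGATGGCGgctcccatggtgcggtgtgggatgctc
Mrpl17: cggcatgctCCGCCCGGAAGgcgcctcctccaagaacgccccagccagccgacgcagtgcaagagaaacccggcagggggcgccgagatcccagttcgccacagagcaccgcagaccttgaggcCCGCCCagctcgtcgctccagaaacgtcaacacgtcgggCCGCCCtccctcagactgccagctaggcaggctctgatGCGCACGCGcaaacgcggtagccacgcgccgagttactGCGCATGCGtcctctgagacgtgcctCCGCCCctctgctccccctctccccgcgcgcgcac
Mrps15: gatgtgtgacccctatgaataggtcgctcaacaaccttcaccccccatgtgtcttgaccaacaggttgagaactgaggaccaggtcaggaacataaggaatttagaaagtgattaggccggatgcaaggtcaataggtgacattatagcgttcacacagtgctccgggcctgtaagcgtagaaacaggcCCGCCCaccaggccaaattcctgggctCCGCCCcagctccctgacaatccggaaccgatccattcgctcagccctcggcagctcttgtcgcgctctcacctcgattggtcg

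The Mrps27 window held the ETS motif on the opposite strand at -48 to -42 and the YY1 motif at 14 to 22, counted with the annotated start as 0. The Mrpl17 window held the NRF1 motif at -49 to -41 and at -11 to -3, the ETS motif at -237 to -231 and the SP1 motif in 4 places, the first of which overlaps the ETS match. The Mrps15 window held only the SP1 motif, at -61 to -56 and at -34 to -29. A start region was found in the RefSeq table for 67 of the 76 members. The NRF1 motif stood in 16 of these 67 (23.9%), against 14.2% of 10766 tested protein-coding genes and 6.25% of all 32851 promoters in the table. The ETS motif stood in 24 members (35.8%), against 18.5% and 8.86%, and the YY1 motif in 11 (16.4%), against 5.53% and 2.38%. The SP1 motif stood in 34 members (50.7%), against 65.7% of tested coding genes and 35.7% of all promoters, and the CREB motif in 2 (2.99%), against 3.38% and 1.79%. Of the 67 members, 34 held the NRF1 or the ETS motif, and 6 held both. These matches are descriptions of letters in a window, and the 3 called members differed from each other in which of them they held.

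Levels are compared between genes as RPKM, the CPM scaled by trimmed-mean (TMM) factors and divided by the length of all annotated exons in kilobases. The median member stood at 10.1 RPKM over the 22 libraries, and the members ran from 1.19 to 80.2 RPKM. The highest was Mrpl52, of the mitochondria-specific part of the large subunit, with 73.7 ± 8.75 RPKM in KO fasted, 80.3 ± 13.4 in KO fed, 79.7 ± 7.57 in control fasted and 88.3 ± 17.6 in control fed livers (SD, n = 6, 6, 5 and 5). It was followed at a distance by Mrpl34 with a mean of 38.1 RPKM, Mrpl42 with 36.2, Mrpl12 with 36 and Mrps24 with 33.2. The means of Mrpl34, Mrpl42 and Mrpl12 differed by less than the SD of any of them within a group of libraries, which was 2.91 RPKM or more. Mrpl12, the counterpart of the bacterial stalk protein L7/L12, has also been reported to bind the mitochondrial RNA polymerase in human and mouse cells. The lowest were Mrps25 with 1.19 RPKM, Mrpl19 with 1.51, Mrpl47 with 1.99, Mrpl3 with 2.05 and Mrpl48 with 2.19. The length used joins every annotated exon. For Mrps25 this was 6576 bases, of which 53.7% were shared with Nr2c2 on the opposite strand, and its mean of 7.88 CPM was also among the lower ones of the members.

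The median of large subunit genes was 11.2 RPKM and that of small subunit genes 8.28 RPKM. Within the large subunit, genes with a bacterial counterpart had a median of 13.8 RPKM and mitochondria-specific ones 10 RPKM, and within the small subunit the medians were 10 and 7.29 RPKM. The ranges of the 4 classes overlapped, and the small subunit genes specific to mitochondria reached no higher than 12.3 RPKM, against 33.2, 38.1 and 80.2 RPKM in the other classes. Although the proteins are assembled at 1 copy each, apart from Mrpl12, the RPKM of their transcripts differed widely from gene to gene in the same libraries. These values rest on the joined exon length, which was 412 bases for Mrpl52 and 6576 for Mrps25. How far that length shapes the order and the class medians was not tested. By mean CPM, Mrpl52 at 33 stood below several members, the highest being Mrpl12 at 55.2, Mrpl38 at 54.7 and Mrps24 at 48.7.

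**Figure D1:**
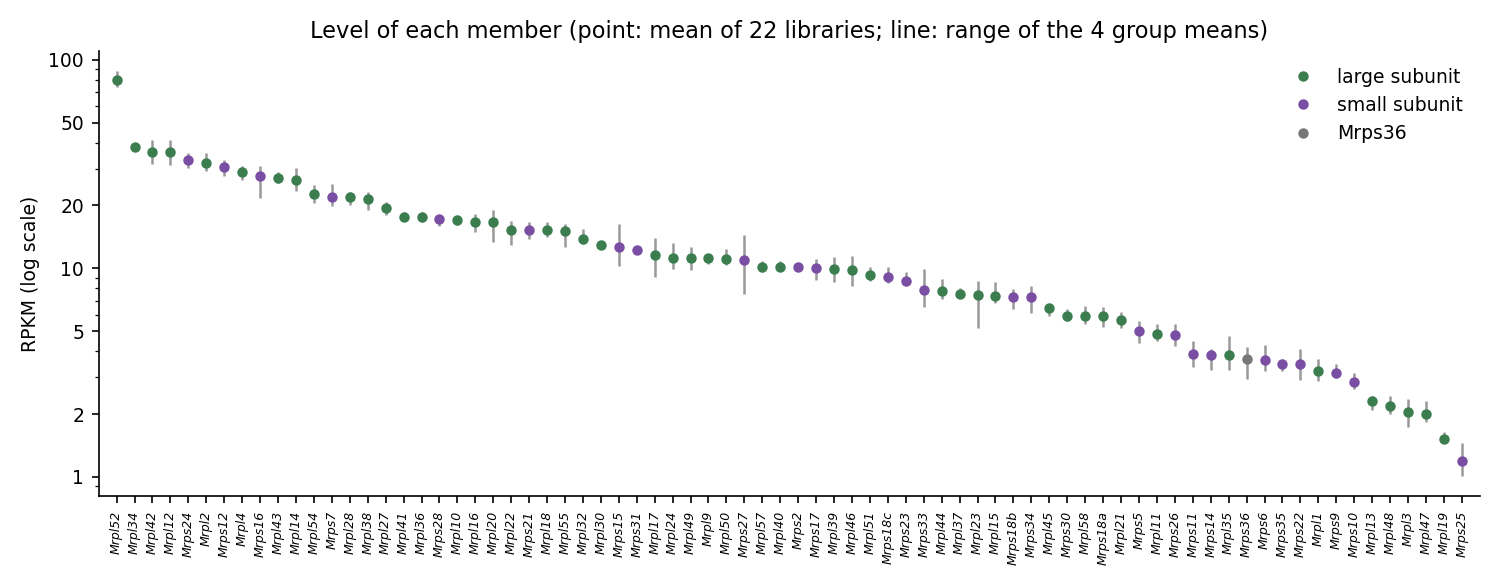
Mean RPKM (log scale) of each of the 76 members over 22 libraries, coloured by subunit, with a line from the lowest to the highest of the 4 group means. The order from Mrpl52 at 80.2 RPKM to Mrps25 at 1.19 RPKM spans far more than the lines of single genes.

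Between libraries of the same group, the SD of log2 CPM had a median of 0.25 over the members, against 0.308 over 7171 protein-coding genes in the same range of levels and 0.479 over all 16757 genes tested. The steadiest were Mrpl9 with an SD of 0.14, Mrps7 with 0.15 and Mrpl12 with 0.17. The most variable were Mrps36 with 0.68, Mrps34 with 0.58 and Mrps6 with 0.47. Mrps36 and Mrps6 were also the members with the fewest reads, down to 18 reads for Mrps36 and 57 for Mrps6 in a library. Mrps34 shared 77.8% of its exon bases with Mapk8ip3 and Nme3. How reads in shared bases were counted was not examined, so its count may lack reads of its own or hold reads of these genes. Within groups the members showed little movement in common. Over 2850 pairs of members the correlation of deviations from the group means across 22 libraries had a median of 0.03, with quartiles of -0.15 and 0.21. Pairs of other genes were not computed, so this is not shown to be particular to the members.

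The first question of the design was what an 18 h fast does in each genotype. In KO livers Mrpl17 rose with fasting and Mrps27 fell, and in control livers Mrps27 and Mrps15 fell. No other member passed an adjusted p of 0.05 (edgeR quasi-likelihood test, adjusted over all tested genes by Benjamini and Hochberg). In KO livers 1 of 76 members was called higher, against 2.88% of all tested genes, and 1 lower, against 3.26%. In control livers 0 members were called higher, against 3.99%, and 2 lower, against 4.13%. At an unadjusted p under 0.05 there were 10 members (13.2%) in KO livers, against 16% of all genes, and 10 (13.2%) in control livers, against 19.6%. DESeq2 called 1 member higher and 1 lower in KO livers and 1 higher and 3 lower in control livers, and limma voom gave the same numbers as edgeR. The share of members called was thus at or below that of all genes in each direction. In bulk liver, fewer cells of a type and less RNA per cell cannot be told apart.

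Mrps27, a mitochondria-specific protein of the small subunit with a pentatricopeptide repeat domain, had the clearest change. In fasted KO livers it ran from 13 through a median of 17.1 to 18.6 TMM-scaled CPM, against 22.3, 23.8 and 28.7 CPM in fed KO livers. In control livers the fasted libraries had 16.4, 12, 9.33, 15.4 and 16.1 CPM, against 27.2, 22.3, 26.2, 33 and 24.2 CPM in fed ones. Every fasted library lay below every fed library in both genotypes. The log2 fold change with fasting was -0.53 ± 0.14 (SE; adjusted p = 0.0157, edgeR quasi-likelihood test) in KO and -0.94 ± 0.16 (adjusted p = 8.23e-05) in control livers. The call in KO livers ended without KO fasted replicate 6, which had the 13 CPM (-0.47, adjusted p = 0.056). It also ended with the title-number runs as a fixed term (-0.50, adjusted p = 0.12), runs being neighbouring numbers in the sample titles, and with the kidney-like library in the fit, which left the value at -0.53 (adjusted p = 0.14). Within the 4 runs that held both KO groups the change lay between -0.89 and -0.42, and in the 1 run that held both control groups it was -1.45. Exons of Mrps27 share 22.6% of their bases with 6430562O15Rik on the opposite strand, whose own mean was 0.572 CPM.

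Mrps15 is the counterpart of the bacterial small subunit protein S15. It had 17.8, 17.4, 16, 12.4 and 22.4 CPM in fasted control livers, against 24.8, 30.9, 27.9, 29.7 and 25 CPM in fed control livers. The control groups did not overlap, and the log2 fold change was -0.69 ± 0.16 (SE; adjusted p = 0.00401, edgeR). In KO livers it ran from 17.1 through a median of 19.7 to 24.1 CPM when fasted, against 16, 22.6 and 25.5 CPM when fed. There the groups overlapped over most of their range, with a log2 fold change of -0.09 ± 0.15 that did not pass. The difference between the 2 fasting changes was 0.60 ± 0.21 on the log2 scale and did not pass either (unadjusted p = 0.00895, adjusted p = 0.997, edgeR), so the genotypes were not shown to differ. The 1 run of title numbers with both control groups gave -0.77.

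Mrpl17, the counterpart of a bacterial large subunit protein at the exit of the peptide tunnel, moved the other way. It ran from 44.5 through a median of 58.3 to 60.8 CPM in fasted KO livers, against 31.2, 37.9 and 44.2 CPM in fed KO livers. The lowest fasted library lay just above the highest fed one. The log2 fold change in KO livers was 0.54 ± 0.12 (SE; adjusted p = 0.00207, edgeR), and it lay between 0.36 and 0.70 within 4 runs of title numbers. With the kidney-like library in the fit the value stayed at 0.54 and the call ended (adjusted p = 0.104). In control livers Mrpl17 had 58.1, 50.9, 58.7, 63.7 and 57.4 CPM when fasted, against 37.7, 52.8, 41.9, 40 and 50 CPM when fed, with 2 fed libraries close to or above the lowest fasted one. The control change of 0.38 ± 0.13 missed the threshold (adjusted p = 0.0597). It passed without control fed replicate 2 (0.45, adjusted p = 0.031) and without control fed replicate 5 (0.43, adjusted p = 0.0475), the 2 fed libraries with the highest values. It also passed without control fasted replicate 2 (0.43, adjusted p = 0.0455) and in DESeq2 (adjusted p = 0.043). With the kidney-like library it was 0.23 (adjusted p = 0.53), and the adjusted p over all settings that kept every library used ran from 0.043 to 0.53. The interaction of Mrpl17 had an adjusted p of 1.

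**Figure D2:**
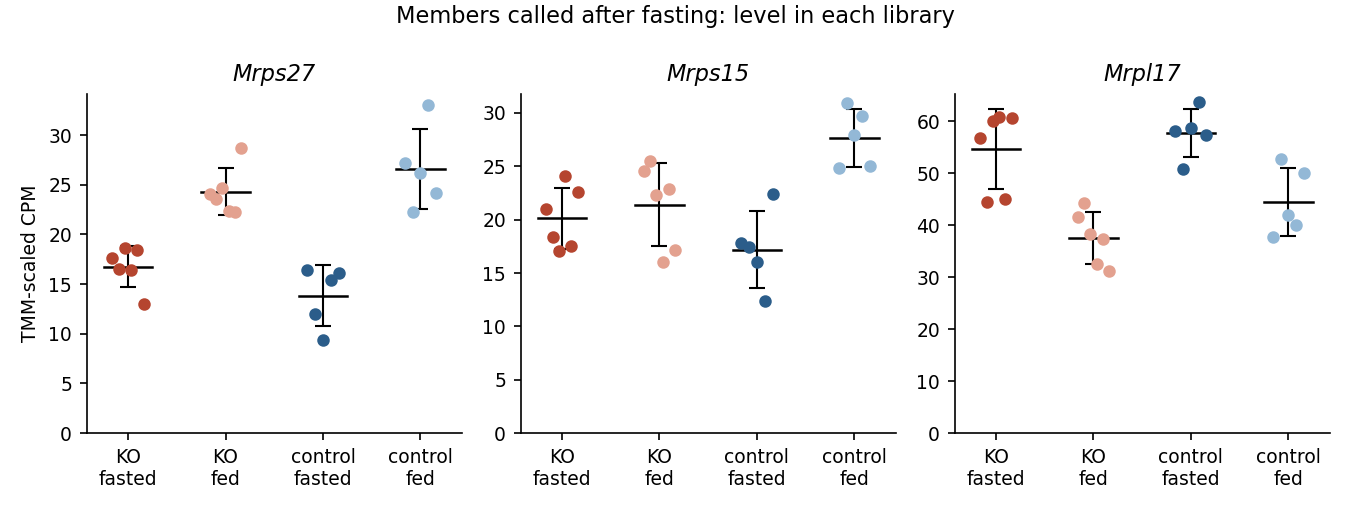
TMM-scaled CPM of Mrps27, Mrps15 and Mrpl17 in each library of the 4 groups, with the mean (line) and SD (bars; n = 6, 6, 5 and 5). For Mrps27 every fasted library lies below every fed one in both genotypes, for Mrps15 in control livers alone, and for Mrpl17 every fasted KO library lies above every fed KO library.

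Next in order of p but not passing after fasting in KO livers were Mrpl20 at 0.42 ± 0.15 (adjusted p = 0.0976, edgeR), Mrpl42 at -0.35 ± 0.13 and Mrps16 at -0.46 ± 0.17 (adjusted p = 0.11 for both). Mrpl20 passed without KO fed replicate 6 (adjusted p = 0.0303) and without KO fasted replicate 2 (adjusted p = 0.0478). In control livers the next were Mrpl35 at -0.55 ± 0.18 (adjusted p = 0.0598) and Mrpl23 at -0.61 ± 0.21 (adjusted p = 0.0772). Mrpl35 passed without control fed replicate 1 (adjusted p = 0.0117), without control fasted replicate 6 (adjusted p = 0.0412) and in DESeq2. Mrpl23 passed without control fed replicate 3 (adjusted p = 0.0374) and without control fasted replicate 6 (adjusted p = 0.0193). The groups did not overlap for 1 member higher in fasted KO livers, against 1.81% of all genes, for 2 lower in fasted KO livers, against 2.15%, and for 3 lower in fasted control livers, against 4.03%. Besides the called members these were Mrpl39 in KO and Mrpl42 in control livers. Mrpl42 had 19.5, 24.8, 17.9, 19.1 and 23.5 CPM in fasted control livers, against 29.7, 26.4, 27.3, 29 and 24.9 CPM in fed ones, and its change of -0.39 ± 0.14 had an adjusted p of 0.0853.

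Most of the members had small negative values after fasting. Their log2 fold change was below 0 for 58 of 76 in KO livers with a median of -0.11, and for 49 of 76 in control livers with a median of -0.08, while the median over all tested genes was 0.01 and 0.00. When scaled by library totals alone, the median in KO livers was -0.17. The median was -0.12 for the large and -0.11 for the small subunit genes in KO livers, and -0.07 and -0.09 in control livers, so both subunits stood at about the same value. Mitochondria-specific genes of the large subunit were below 0 in 17 of 20 cases in KO and in 16 of 20 in control livers. Those with a bacterial counterpart were below 0 in 20 of 29 and 17 of 29. In the small subunit, 6 of 10 and 5 of 10 mitochondria-specific genes were below 0. Small subunit genes with a bacterial counterpart were below 0 in 14 of 16 and 10 of 16. Over all tested genes 48.8% were below 0 in KO and 49.7% in control livers. Differences between these small classes were not tested. The 95% interval lay within a 2-fold change in either direction for 75 of 76 members in KO and 71 of 76 in control livers, and within a 1.5-fold change for 57 and 54.

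The 2 fasting changes come from separate libraries. Over the 76 members they had a Pearson correlation of 0.47 and a Spearman correlation of 0.51 across genes, which share their libraries and are not independent. The sign was the same for 51 of 76 members (67.1%), against 65.7% of all tested genes and 70% of protein-coding genes in the same range of levels. The Pearson correlation was 0.31 over all tested genes and 0.68 over those protein-coding genes.

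**Figure D3:**
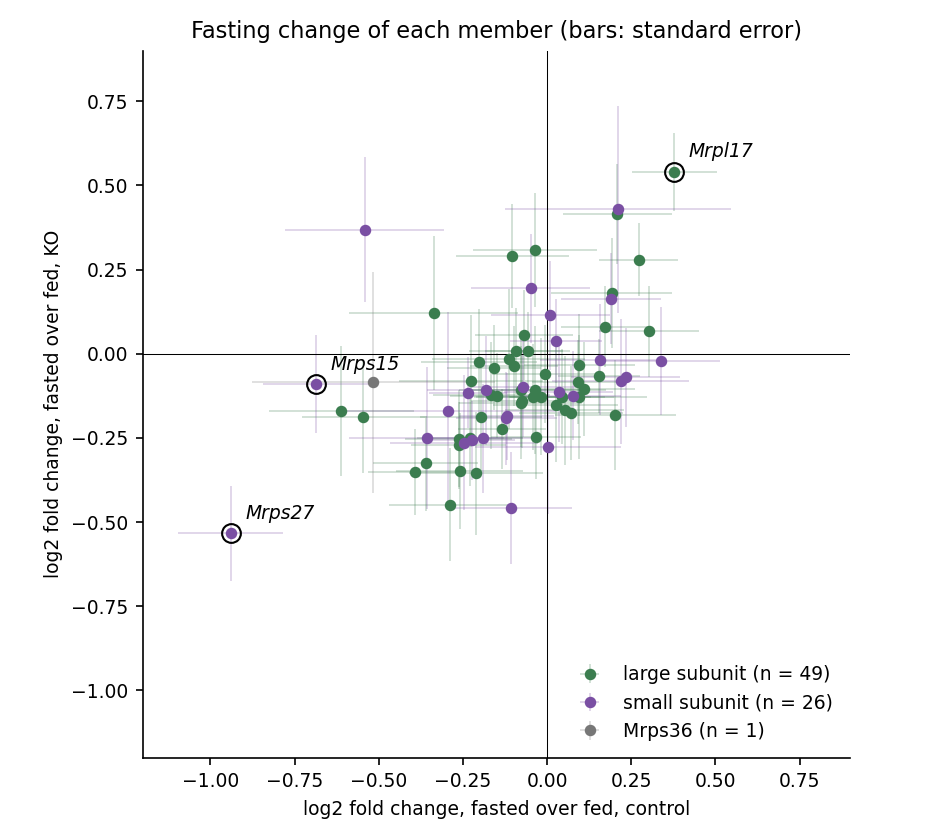
Log2 fold change of fasted over fed for each member in KO livers (vertical) and control livers (horizontal), with standard errors, coloured by subunit. The 3 called members are circled and named, and most others lie within 0.5 of 0 on both axes.

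The second question was whether loss of Gpt2 in the liver changed these genes. No member was called in either feeding state by edgeR, DESeq2 or limma voom. In fasted livers 0 of 76 were called higher, against 0% of all genes, and 0 lower, against 0.00597%, the single gene called being Gpt2. In fed livers the shares of all genes were again 0% higher and 0.00597% lower, and again Gpt2 was the gene called. At an unadjusted p under 0.05 there were 4 members (5.26%) in fasted livers, against 4.01% of all genes, and 3 (3.95%) in fed livers, against 9.01%. The 95% interval lay within a 2-fold change for 75 of 76 members in each feeding state and within a 1.5-fold change for 60 in fasted and 62 in fed livers, so a change of 2-fold or more was outside the interval of nearly every member.

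In fasted livers the smallest p belonged to Mrpl23, the counterpart of a bacterial protein at the tunnel exit. It ran from 11.1 through a median of 14.3 to 15.5 CPM in fasted KO livers, against 11.1, 8.43, 6.29, 6.61 and 13.6 CPM in fasted control livers, a log2 fold change of 0.57 ± 0.21 (unadjusted p = 0.00916, adjusted p = 1, edgeR). With the title-number runs as a fixed term the value was 1.07 (adjusted p = 1), and the median within the 2 runs that held both fasted groups was 1.02. The next were Mrpl24 at -0.32 ± 0.13, Mrpl46 at -0.41 ± 0.18, Mrps16 at -0.39 ± 0.17 and Mrpl15 at -0.28 ± 0.14, all with an adjusted p of 1. Mrpl46, lower in KO, was the 1 member without overlap between the fasted genotypes, against 0.179% of all genes. It ran from 10.2 through a median of 11.3 to 13 CPM in fasted KO livers, against 14.8, 13.4, 13.7, 13.7 and 20.2 CPM in fasted control livers. Mrpl46 shares 12.4% of its exon bases with another member, Mrps11, on the opposite strand.

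In fed livers the smallest p belonged to Mrps33, a mitochondria-specific protein of the small subunit. It ran from 5.61 through a median of 8.43 to 9.91 CPM in fed KO livers, against 9.69, 17.6, 9.11, 15.2 and 9.48 CPM in fed control livers. The log2 fold change was -0.59 ± 0.22 (unadjusted p = 0.0123, adjusted p = 0.409, edgeR), and 2 of the 5 control libraries stood apart from the other 3. The next were Mrps15 at -0.37 ± 0.15, Mrps7 at -0.24 ± 0.11, Mrpl55 at -0.36 ± 0.18 and Mrpl2 at -0.25 ± 0.12, with adjusted p from 0.45 to 0.556. In fed KO livers 60 of 76 members were below 0 with a median of -0.08, and in fasted KO livers 59 of 76 with a median of -0.10. Among protein-coding genes in the same range of levels 46.5% were below 0 in fed and 46.3% in fasted livers. Between the feeding states the values had a Pearson correlation of -0.07 across the 76 members. It was 0.07 over all tested genes and 0.15 over protein-coding genes in the same range of levels. The sign was the same in both states for 51 of 76 members (67.1%), against 55.7% and 57.3%. With 78.9% of members below 0 in fed and 77.6% in fasted livers, equal signs are frequent even where the values are unrelated.

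**Figure D4:**
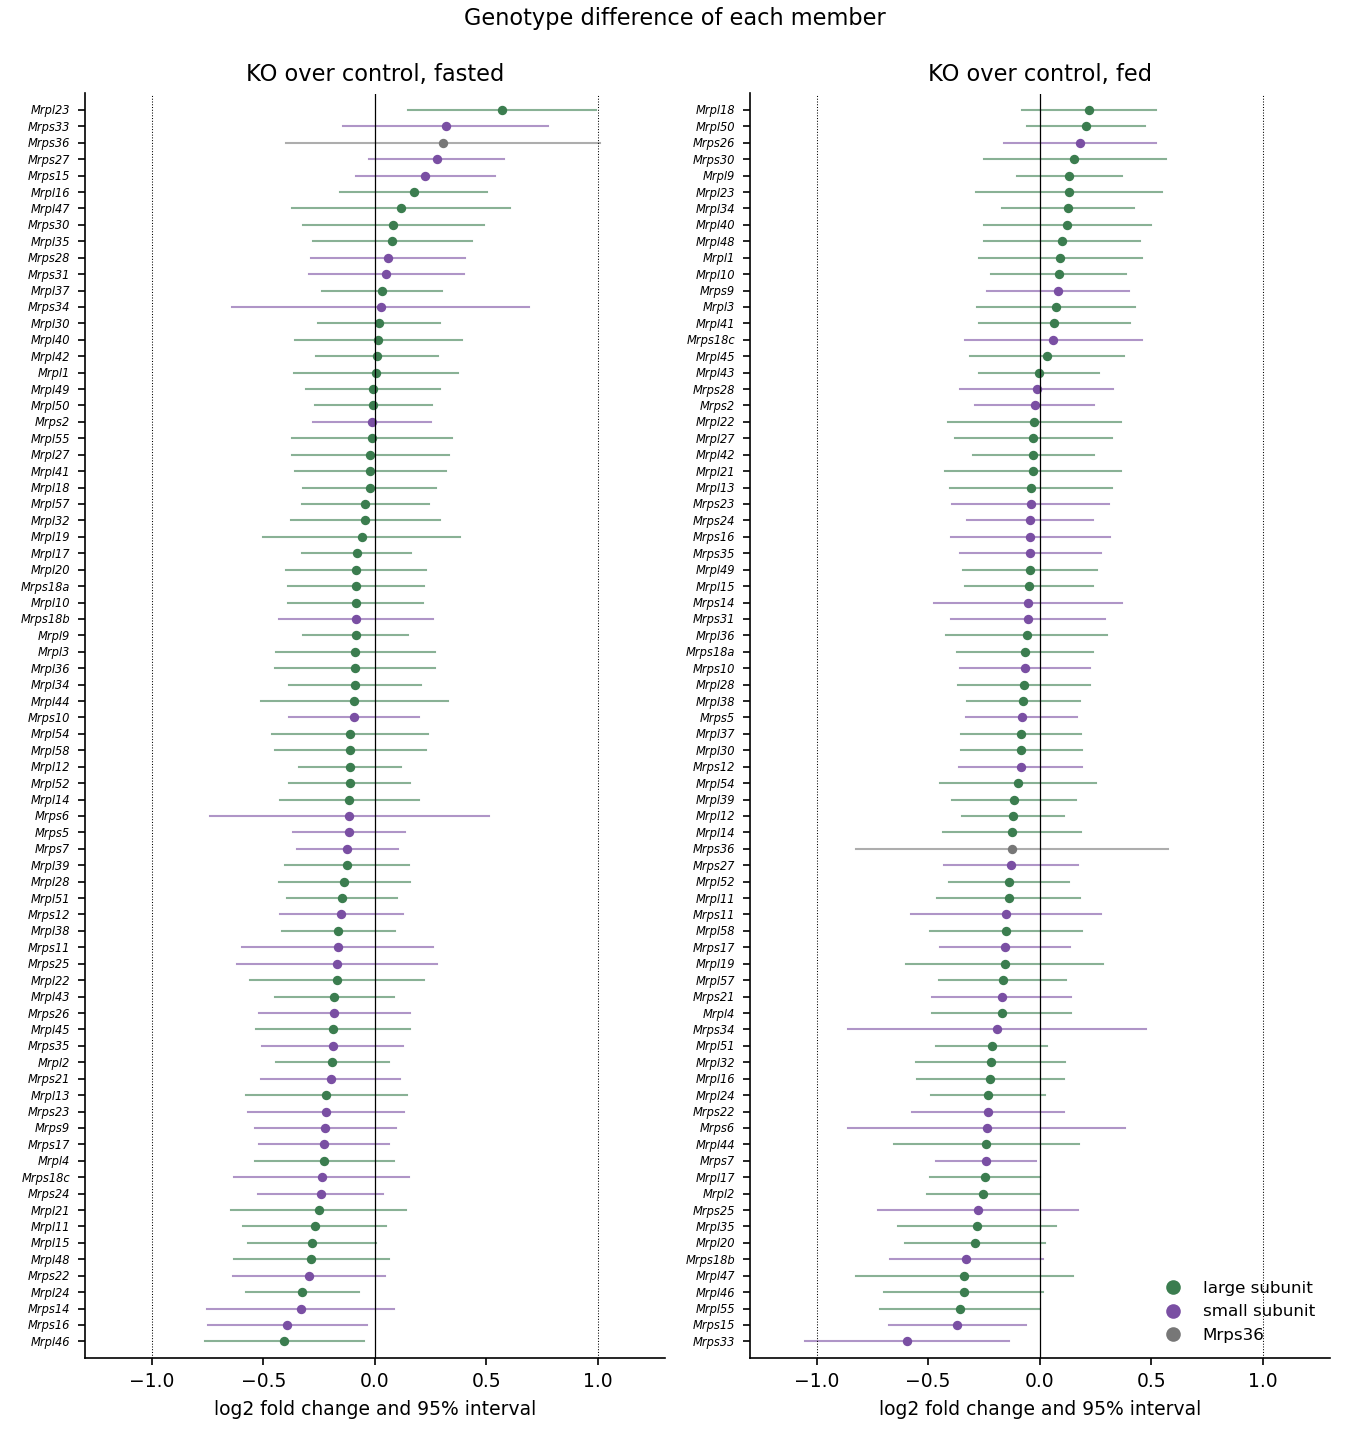
Log2 fold change of KO over control for each of the 76 members with its 95% interval, in fasted (left) and fed livers (right), ordered by value and coloured by subunit; dotted lines mark a 2-fold change. Most points lie left of 0, none passes the test, and the order of the genes differs between the panels.

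The interaction, the fasting change in KO minus that in control livers, called 0 members higher, against 0% of all genes, and 0 lower, against 0.00597%. The single gene called over all was no member. The members with an unadjusted p under 0.05 numbered 2 (2.63%), against 4.69% of all genes, and DESeq2 and limma voom called none. They were Mrps33 at 0.91 ± 0.32 (adjusted p = 0.997, edgeR) and Mrps15 at 0.60 ± 0.21, followed by Mrps27 at 0.41 ± 0.21, Mrpl16 at 0.39 ± 0.23 and Mrpl48 at -0.38 ± 0.24. The intervals were wider here, with 69 of 76 within a 2-fold and 35 within a 1.5-fold difference.

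Summed over all members, the level was 1546 ± 61.2 CPM in KO fasted, against 1663 ± 56.2 CPM in control fasted livers, and 1615 ± 67.8 CPM in KO fed, against 1722 ± 38.7 CPM in control fed livers (SD). The fasted KO libraries ran from 1478 to 1637 CPM and the fasted control ones from 1624 to 1762 CPM. In fed livers the KO libraries ran from 1525 to 1693 CPM and the control ones from 1667 to 1771 CPM. Both pairs of this sum overlapped at their edges. With library totals the same means were 1530 in KO fasted, 1643 in control fasted, 1661 in KO fed and 1719 in control fed livers, with ranges that overlapped more widely. Large subunit genes gave 1065 ± 37.9 CPM in KO fasted, 1101 ± 48.9 in KO fed, 1143 ± 27.9 in control fasted and 1165 ± 33 in control fed livers. Small subunit genes gave 476 ± 27.3, 509 ± 19.8, 516 ± 32.1 and 552 ± 9.49 CPM in the same order. The large subunit sums ran from 1007 to 1114 CPM in KO fasted, against 1115 to 1188 CPM in control fasted livers, and the small subunit sums from 488 to 530 CPM in KO fed, against 539 to 563 CPM in control fed livers, so neither pair overlapped. The large sums in fed livers, 1035 to 1160 CPM in KO against 1123 to 1207 CPM in control, and the small sums in fasted livers, 442 to 516 CPM in KO against 491 to 569 CPM in control, did overlap. With library totals all 4 pairs overlapped, among them the large sums in fasted livers at 889 to 1138 in KO against 1003 to 1275 in control, and the small sums in fed livers at 457 to 562 in KO against 530 to 574 in control. The ratio of the large to the small sum was 2.24 ± 0.0952 in KO fasted, 2.16 ± 0.047 in KO fed, 2.22 ± 0.105 in control fasted and 2.11 ± 0.0558 in control fed livers. These sums are given without a test, as the members were chosen with results of these data known. Sums over other genes were not made, so the lack of overlap is not shown to be particular to the members.

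**Figure D5:**
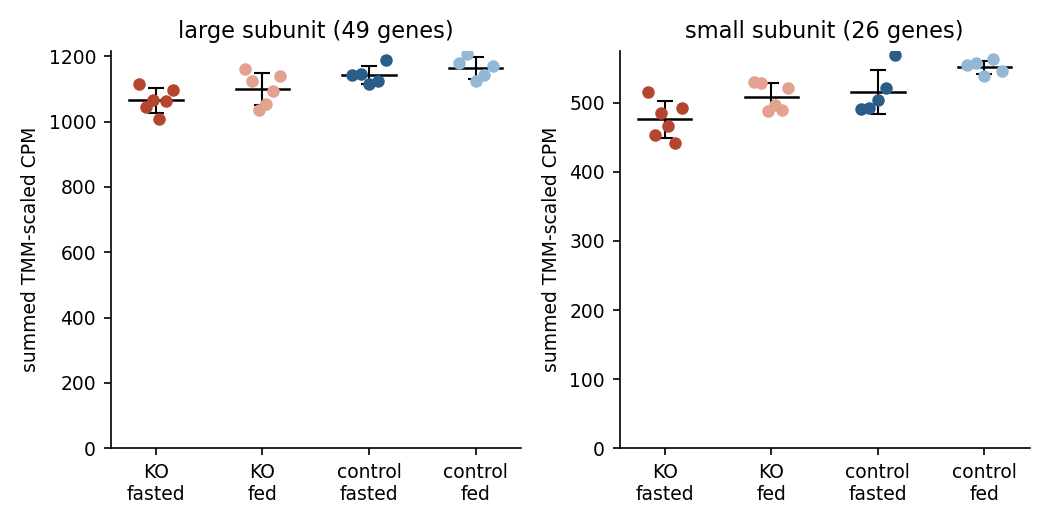
Summed TMM-scaled CPM of the 49 large and the 26 small subunit genes in each library, with the mean (line) and SD (bars; n = 6, 6, 5 and 5). The KO groups have the lower means at the same feeding state. Their libraries lie below those of the controls without overlap for the large subunit in fasted and the small subunit in fed livers. The former pair is parted by only 1114 CPM in KO against 1115 CPM in control. The other 2 pairs overlap, and with library totals every pair overlaps.

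Several members have roles beyond a fixed place in the ribosome. Mrpl12 was at 0.28 ± 0.11 after fasting in KO and 0.27 ± 0.12 in control livers (adjusted p = 0.136 and 0.173, edgeR). It ran from 46.9 to 65.4 CPM in fasted KO livers, against 39.5 to 52.5 CPM in fed KO livers. Mrps18a, Mrps18b and Mrps18c are paralogues related to bacterial S18, the first placed in the large and the others in the small subunit. None passed in any comparison, and their fasting values were -0.25 ± 0.14, 0.19 ± 0.16 and -0.08 ± 0.19 in KO livers and -0.23 ± 0.16, -0.05 ± 0.18 and 0.22 ± 0.20 in control livers. Mrps30 stayed between -0.11 and 0.16 over the 4 comparisons of groups. Mrpl58, known also as Ict1, is a peptidyl-tRNA hydrolase that releases stalled ribosomes, and its values lay between -0.17 and -0.11. Mrps36 had 0.949 to 5.59 CPM in fasted control livers, against 2.99 to 7.12 CPM in fed control livers, and its change of -0.52 ± 0.36 did not pass.

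Genes that work with the mitochondrial ribosome were examined as lists, with the count of called genes read against the shares of all genes given above. Among 13 translation factors, Tufm, the elongation factor that brings tRNAs to the ribosome, fell with fasting in both genotypes. It averaged 64.7 ± 5.29 CPM in fasted KO livers, against 84.4 ± 5.64 CPM in fed KO livers, and 66.9 ± 10 CPM in fasted control livers, against 93.7 ± 13 CPM in fed control livers (SD, n = 6 KO and 5 control). The log2 fold changes were -0.38 ± 0.10 in KO (adjusted p = 0.0192) and -0.49 ± 0.11 in control livers (adjusted p = 0.00476, edgeR). The KO call of Tufm ended without KO fed replicate 1 (adjusted p = 0.0562) and without KO fasted replicate 2 (adjusted p = 0.0534), and with the kidney-like library (-0.38, adjusted p = 0.0615). With the title-number runs as a fixed term both Tufm calls ended, at -0.35 in KO (adjusted p = 0.167) and -0.47 in control livers (adjusted p = 0.274). Gfm2, which helps to recycle ribosomes, fell in control livers by 0.44 on the log2 scale (adjusted p = 0.0177, edgeR). Its control libraries ran from 28.1 to 36.8 CPM when fasted, against 34.7 to 55.2 CPM when fed. In KO livers Gfm2 did not pass in that fit, and ran from 30.2 to 38.3 CPM when fasted, against 40.2 to 44.4 CPM when fed. The control call ended without any one of control fed replicates 1 and 2 and control fasted replicates 1 and 5 (adjusted p from 0.0513 to 0.103). It also ended with only the control groups in the fit (adjusted p = 0.0603) and with the runs as a fixed term (adjusted p = 0.186). The other translation factors did not pass in the edgeR fit that gave the values above, and Mtfmt, which formylates the initiator tRNA and had an adjusted p of 0.0557 there, passed in KO livers with DESeq2 (-0.64, adjusted p = 0.0169), with limma voom (-0.62, adjusted p = 0.0301) and in 4 other settings.

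Among 28 genes of ribosome assembly and rRNA modification, 2 rose after fasting in KO livers and none passed in control livers. Ddx28, an RNA helicase of large subunit assembly, averaged 17.4 ± 3.79 CPM in fasted KO livers, against 10.3 ± 1.69 CPM in fed KO livers (log2 fold change 0.75 ± 0.18, adjusted p = 0.00511, edgeR). Trub2, a pseudouridine synthase, was at 0.81 ± 0.23 (adjusted p = 0.0232), and its call ended without any one of KO fed replicates 5 and 6 and KO fasted replicates 4 and 6 (adjusted p from 0.0502 to 0.0703) and with the kidney-like library (adjusted p = 0.0675). Among 20 genes for mitochondrial tRNA synthetases and the amidotransferase that completes glutaminyl-tRNA, Nars2 at -0.78 ± 0.18 (adjusted p = 0.00519) and Tars2 at -0.55 ± 0.15 (adjusted p = 0.017) fell in KO livers. These charge tRNAs with asparagine and threonine. In control livers Nars2 averaged 10.9 ± 1.22 CPM when fasted, against 14.7 ± 4.26 CPM when fed. Tars2 averaged 17.9 ± 2.87 CPM in fasted control livers, against 24.2 ± 4.3 CPM in fed ones, and neither passed there. The Tars2 call ended without KO fed replicate 6 (adjusted p = 0.0577) and without KO fasted replicate 3 (adjusted p = 0.0517). Both calls ended with the runs as a fixed term, Nars2 at -0.76 (adjusted p = 0.0654) and Tars2 at -0.38 (adjusted p = 0.272), and with the kidney-like library (adjusted p = 0.0865 and 0.0509), while limma voom also called Fars2 and Gatb lower in KO livers, as DESeq2 did Gatb. Gatb, a subunit of the amidotransferase, was at -0.45 ± 0.14 in control livers (adjusted p = 0.0309), and that call ended without 7 of the 10 control libraries, left out one at a time, and in 6 other settings, limma voom among them (adjusted p from 0.0505 to 0.369).

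Of the ribosomal proteins whose symbols fall outside the naming rule, 5 were measured under the listed symbol, the sixth being Ict1, counted above as Mrpl58. Dap3, of the small subunit, averaged 22.1 ± 1.27 CPM in fasted control livers, against 30.5 ± 3.35 CPM in fed control livers (log2 fold change -0.46 ± 0.13, adjusted p = 0.0162, edgeR). In KO livers it averaged 24.7 ± 2.61 CPM when fasted, against 30.3 ± 3.74 CPM when fed, and did not pass. The Dap3 call in control livers ended without a filter beyond 1 read (adjusted p = 0.0543), with the kidney-like library (-0.36, adjusted p = 0.0943) and with the runs as a fixed term (-0.47, adjusted p = 0.315). The other 4 did not pass in any comparison. In that same fit no gene passed among 12 of mitochondrial DNA transcription and replication, 9 regulators of mitochondrial biogenesis and the 13 messenger RNAs of mitochondrial DNA. Of the regulators, Myc and Pprc1, a relative of Ppargc1a, were at 0.97 ± 0.33 and 0.66 ± 0.22 after fasting in KO livers (adjusted p = 0.0889 and 0.0762). DESeq2 called both higher (adjusted p = 0.0481 and 0.0492), limma voom called Pprc1 (adjusted p = 0.0489) and a fit of the KO groups alone called Myc (adjusted p = 0.0254). Pprc1 also passed without KO fed replicate 1 (adjusted p = 0.00927) and without KO fasted replicate 5 (adjusted p = 0.0131). The respiratory chain genes mt-Nd5 and mt-Nd6 passed after fasting with only the control groups in the fit (0.42 and 0.47, adjusted p = 0.0177 and 0.015) and, in KO livers, without KO fed replicate 5 (adjusted p = 0.0423 and 0.0478). Ppargc1a, a coactivator of mitochondrial biogenesis, was at 0.37 ± 0.23 after fasting in KO and 0.44 ± 0.25 in control livers, neither passing. In the genotype comparisons and the interaction no gene of any of these lists passed in any setting that kept every library used.

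Markers of other cells moved with some of the groups, and their part in the results was not tested. The 6 stellate cell markers summed to 83 to 133 CPM in fasted KO, against 126 to 159 CPM in fed KO livers, and to 63.6 to 116 CPM in fasted control, against 106 to 142 CPM in fed control livers, with 1 marker called lower in KO and 2 in control livers. The 8 Kupffer cell markers summed to 145 to 289 CPM in fasted KO, against 129 to 157 CPM in fasted control livers, and to 175 to 266 CPM in fed KO, against 142 to 216 CPM in fed control livers. The 6 hepatocyte markers summed to 76916 to 150814 CPM in fasted KO, against 72226 to 129481 CPM in fed KO livers, and to 71804 to 134898 CPM in fasted control, against 72701 to 107753 CPM in fed control livers. After fasting in control livers 2 hepatocyte markers were called higher and 1 lower, and none in KO livers. The 6 sinusoidal endothelial markers summed to 139 to 222 CPM in KO fasted, against 127 to 166 CPM in control fasted livers, and to 145 to 204 CPM in KO fed, against 98.3 to 151 CPM in control fed livers, with 1 marker called higher by fasting in each genotype. The 5 erythroid markers summed to 347 to 627 CPM in fasted KO, against 246 to 450 CPM in fed KO livers, and to 281 to 572 CPM in fasted control, against 284 to 631 CPM in fed control livers, with 1 called lower in each genotype. The 6 cholangiocyte markers summed to 17.7 to 34.4 CPM in fasted control, against 27.7 to 60.1 CPM in fed control livers, with 1 called lower. Of the lists for kidney tubule, lymphocytes and exocrine pancreas, 5 of 6, 6 of 6 and 1 of 6 markers were tested, and none was called after fasting. Each of these lists summed to at most 17.4 CPM in any of the 22 libraries. That highest sum was of kidney tubule markers in a control fasted library, where the group median was 0.755 CPM. Outside the pancreas list no marker was at 0 in all libraries. Transcripts of mitochondrial DNA took 4.78 ± 1.03% of reads in KO fasted, 4.71 ± 1.27% in KO fed, 4.28 ± 0.493% in control fasted and 3.97 ± 0.391% in control fed libraries.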

How the data were processed

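Reads per gene in mouse liver RNA were deposited for 24 labelled libraries, with a gene length and 3 values for each gene. Per the submitters' processing notes, the tools behind the deposited counts were bcl2fastq, Subread, featureCounts 1.4.6-p5 and STAR 2.5.1a, with GRCm38. No source used here states the strand setting or the annotation release, so a read in an overlap, antisense overlaps included, may belong to either gene. Whether such reads were counted or dropped was not examined. Per the file headers, CPM and RPKM were deposited too; a check showed CPM to be the count over the library total and RPKM the same per kilobase, and neither entered a test. Symbols came from GENCODE M21, which held 40340 of the 41388 genes.

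The counts of 22 libraries entered edgeR 4.0.16 in R 4.3.3: filterByExpr by group (minimum count 10, minimum total 15), TMM factors, a robust quasi-likelihood fit of 4 group means without covariates, and Benjamini-Hochberg adjustment over 16757 genes, called under 0.05. Standard errors were derived from the log2 fold change and the F statistic. Logarithms of single libraries used a prior count of 2. The procedure was tested on simulated counts. The lowest count of a member in a library was 18 reads. Alternatives included DESeq2 1.42.0 and limma 3.58.1. Members and gene lists were chosen with earlier results of these data known. Named were, in each comparison, the members called and, where fewer than 3 were called, the 5 with the smallest p. Over all libraries they were the 5 highest and 5 lowest by RPKM, the 3 most and 3 least variable, members with a special role, and up to 3 called genes of each other list. Mrpl39, Mrpl42 in control livers, and genes quoted for overlap or as an example of a list, were chosen after their values were seen.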

Additional observations from a re-analysis of the deposited data

Results flagged for a closer look

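In 148 groups of 5 or 6 libraries (35 named members and the sums of both subunits in each of 4 groups), a single library lay far from the others by Dixon's test in 10 (6.76%). The level of the test is about 5%. Part of these members were named for their values in the same libraries, so that level is not the chance rate for this set. In KO fasted livers, Mrpl16 was at 17.2 CPM in replicate 3, against 20.3 to 21.8 CPM in the others, Mrpl42 at 14.9 CPM in replicate 5, against 20.4 to 23.3 CPM, and Mrpl58 at 25.6 CPM in replicate 5, against 14.4 to 18.6 CPM. In KO fed livers, Mrps27 was at 28.7 CPM in replicate 6, against 22.3 to 24.7 CPM. In control fasted livers, Mrpl2 was at 32.4 CPM and Mrpl58 at 16.2 CPM in replicate 2, against 40.1 to 41.1 CPM and 20 to 20.5 CPM, Mrpl46 at 20.2 CPM in replicate 6, against 13.4 to 14.8 CPM, and Mrps18c at 13 CPM in replicate 3, against 9.91 to 10.6 CPM. In control fed livers, Mrpl52 was at 49.1 CPM in replicate 2, against 31 to 34.4 CPM, and Mrps18a at 30.6 CPM in replicate 1, against 21.1 to 23.7 CPM.

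The library labelled control fasted replicate 4, which stood outside the comparisons, gave 0.244% of its reads to the 76 members, against 0.144 to 0.189% in the 5 control fasted libraries used. In it 53 of the 76 members lay above every control fasted library, 2 below and 21 within their range, in CPM by library totals. The same count was not made over all genes, so it is not shown to be particular to the members. Transcripts of mitochondrial DNA took 7.9% of its reads, against 3.5 to 4.79%.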

How the results depend on the processing

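No paired analysis was possible because the replicate numbers were given in accession order and pair no libraries; runs of neighbouring title numbers (10 runs, consensus correlation -0.0128) served as a block instead. Values follow as higher and lower calls.

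With the kidney-like library, fasting called 185 and 194 of all genes and 0 and 0 members in KO livers and 426 and 379 genes in control livers, no gene was called lower in either genotype comparison or the interaction (0), and the Mrpl17 value for KO in fasted livers turned to 0.065. With title-number runs as a fixed term, fasting called 296 genes higher and 0 members lower in KO livers and 203 and 201 genes in control livers, and KO in fed livers 2 genes higher. With DESeq2, KO called 52 and 16 genes in fed and 2 genes higher in fasted livers, and the interaction 1 and 5. Without a filter beyond 1 read, KO in fed livers called 9 and 5 genes, and with library totals 4 higher. For fasting in control livers, 1 member was called higher with a mean CPM of at least 1, with DESeq2 and with the runs as a random block. With library totals the members' median for fasting in KO livers was -0.169. Leaving out each of 22 libraries in turn, fasting called 1 to 2 members higher and 0 to 1 lower in KO livers, and 0 to 1 higher and 2 to 4 lower in control livers. KO in fed livers called 0 to 9 genes higher and 1 to 4 lower, and the interaction 0 to 1 lower. The causes were not tested.

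The members' median was below 0 in all 33 settings for each of the 4 group comparisons and in 30 of 32 for the interaction (highest 0.001). The Mrps15 and Mrps27 calls in control livers held in every setting run, with adjusted p up to 0.0125 and 0.015 outside the left-out libraries. The lowest counts in a library were 18 reads for Mrps36 and 57 for Mrps6, and how far depth limits their values was not tested.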
